A study of Homo sapiens with 6 samples.

Results

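The classical cadherins are the adhesion receptors of adherens junctions, and 10 cadherin genes were followed in HK-2 cells with and without TGF-β1. The genes were chosen by name. They were *CDH1*, *CDH2*, *CDH3*, *CDH4*, *CDH5*, *CDH6*, *CDH11*, *CDH13*, *CDH16* and *CDH24*, which are 10 of the 41497 named entries of the count tables. Of these, 7 had enough reads for the test across genes, which covered 14860 genes, and *CDH1*, *CDH3* and *CDH11* did not. RNA was sequenced from HK-2, an immortalised human line of proximal tubular epithelial cells with genotype WT, after 24 h with TGF-β1 (3 libraries) or untreated (3 control libraries). TGF-β1 is a cytokine that drives fibrosis and the loss of epithelial traits. The labels describe growth in DMEM-F12 with serum, and the methods of the study describe TGF-β treatment in serum-free medium. The labels give no dose, and the methods give one for TGF-β treatment in general, without naming these libraries. HK-2 is a single line, and nothing says that the libraries came from separate cultures, so p-values measure the spread between these libraries, which may be technical. In bulk RNA, fewer cells that express a gene and less of its RNA per cell cannot be told apart.

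A cadherin binds the same cadherin on a neighbouring cell through its calcium-dependent extracellular repeats. The cytoplasmic tail of a classical cadherin holds p120-catenin near the membrane and β-catenin farther out, and α-catenin links β-catenin to actin. Type I cadherins here were *CDH1* (E-cadherin), *CDH2* (N-cadherin), *CDH3* (P-cadherin) and *CDH4* (R-cadherin), and type II cadherins were *CDH5* (VE-cadherin), *CDH6* (K-cadherin), *CDH11* (OB-cadherin) and *CDH24*. The remaining pair are cadherins without a classical tail. *CDH13* (T-cadherin) is held in the membrane by a lipid anchor, and *CDH16* (Ksp-cadherin) is a kidney cadherin with a short tail. Proximal tubules are known for *CDH2* and *CDH6*, and distal segments for *CDH1*. The replacement of *CDH1* by *CDH2* is called the cadherin switch and is a textbook sign of epithelial-to-mesenchymal transition.

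Libraries held 21.9 to 26.9 megacounts (M), and the named genes of a group summed to 67.9 M in control and 73.8 M after TGF-β1. CPM below are counts scaled to a common library size with TMM factors and serve to compare libraries, while TPM are per gene length and serve to compare genes within a library. Among 14 markers of tubular epithelium, 10 passed the count filter. All 14 summed to 1753 to 1827 TPM in control and 1862 to 2046 TPM after TGF-β1. Most of that sum was *KRT8* and *KRT18*, which rose from 723 to 1041 and from 449 to 620 mean TPM. By mean TPM, *PAX8* went from 206 to 114, *GGT1* from 85.9 to 52.8 and *KRT19* from 325 to 118. *LRP2*, which encodes the endocytic receptor megalin and defines the proximal tubule, had 0 reads in all 6 libraries, and *HNF4A*, *ANPEP* and *SLC34A1* had at most 7 reads in a library. Of the 10 tested, 5 were called higher and 5 lower. *AQP1* and *CUBN*, a water channel and an endocytic receptor of the proximal tubule, were among the higher, from 28 to 123 and from 34 to 61 reads per group. *AQP1* reached the filter limit in 1 control library and 3 TGF-β1 libraries. It passed only through the group where it was high, so its rise adds no support. The *CUBN* call was lost in 7 alternative fits. *PAX8* (-0.73), *GGT1* (-0.58) and *KRT19* (-1.34 on the log2 scale) were among the lower. Of 8 markers of distal tubule and collecting duct, 0 passed the filter, and *UMOD*, *CALB1*, *SCNN1G* and *FOXI1* had 0 reads in every library.

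*CDH2* had the highest level of the 10 genes per length and is the gain side of the cadherin switch, so the promoter at its listed gene start is shown. Promoter windows were at hand for 2 of the 10 members, *CDH2* and *CDH4*. The files place *CDH2* on chromosome 18, positions 27932878 to 28177130 of hg38, minus strand. The RefSeq window of this gene start, chr18:28177081-28177380 on the minus strand of GRCh38.p14, runs from 250 bases before the start to 50 bases after it. Both CAGAC, the short element bound by SMAD proteins, and CAGGTG, the E-box bound by SNAI and ZEB repressors, were searched on both strands. Capitals mark the matches, with GTCTG being CAGAC on the other strand.
CDH2: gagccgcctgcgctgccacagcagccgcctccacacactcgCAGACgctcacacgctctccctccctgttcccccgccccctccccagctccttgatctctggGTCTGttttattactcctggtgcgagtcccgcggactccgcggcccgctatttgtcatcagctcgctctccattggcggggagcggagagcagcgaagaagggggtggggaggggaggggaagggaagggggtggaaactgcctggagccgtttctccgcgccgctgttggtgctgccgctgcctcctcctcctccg
The window held CAGAC at 2 places, which start 209 bases before the gene start on the gene's strand and 147 bases before it on the other strand, and CAGGTG at 0 places. Of 35116 such windows of all genes, 45.3% held CAGAC and 20.6% held CAGGTG. The GC content of this *CDH2* window was 67.0% and it held 23 CG pairs, against medians of 58.7% and 14 over all windows. A second *CDH2* window, not printed, belongs to a start 140489 bases inside the gene. It held CAGAC at 1 place and CAGGTG at 0, with 40.7% GC and 4 CG pairs. These matches are letters in a window, with no measurement of binding.

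In control cells the cadherin pool was almost wholly *CDH2*, *CDH6* and *CDH24*. *CDH2* had 216, 218 and 228 TPM in control libraries 1, 2 and 3, which ranked 760 of 36940 listed genes by mean TPM. *CDH6* had 61.5, 60.2 and 72.5 TPM and *CDH24* had 28.6, 28.2 and 29.9 TPM. Each of these neighbours in the order was separated from the next in all 3 libraries. *CDH16* followed, then *CDH13*, *CDH5*, *CDH4* and *CDH1*, with *CDH3* and *CDH11* at 0 reads. The 3 values of *CDH13* and *CDH5* overlapped, so their order was within the spread. Together the 7 members other than *CDH2*, *CDH6* and *CDH24* held 4.34 ± 0.274 TPM (SD, n = 3) of a pool of 318 ± 14.3 TPM (SD, n = 3).

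After TGF-β1, *CDH2* and *CDH6* rose more than 2-fold, *CDH24* rose slightly, *CDH16* and *CDH13* fell from low levels, *CDH5* had 0 reads, *CDH4* did not pass the test, and *CDH1* stayed at the limit of detection in both groups. Of the 7 tested members, 3 were called higher and 3 lower at an edgeR adjusted p under 0.05. Over all tested genes, 44.3% were called in either direction, 22.2% higher and 22.1% lower. *CDH5* passed the count filter through its control libraries alone and so had to differ, and its call adds nothing to that count. Groups did not overlap for 6 of the 7 tested members, *CDH5* included, against 55.6% of all genes tested.

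**Figure D1:**
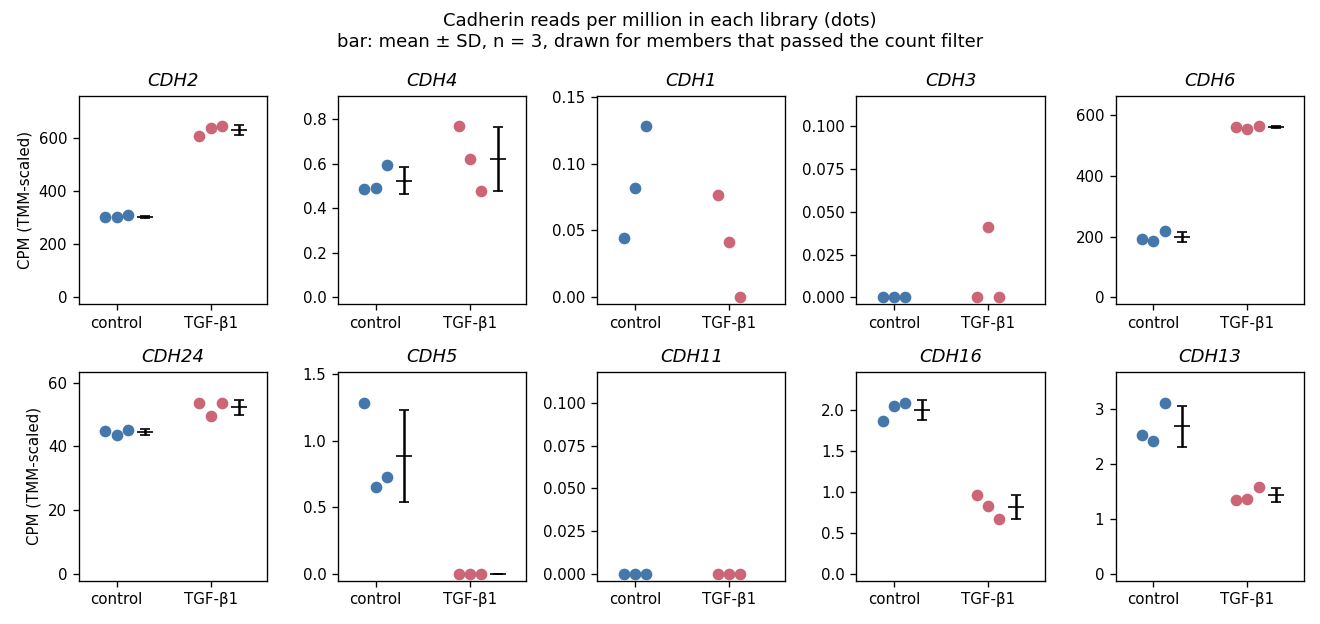
TMM-scaled CPM of each cadherin (vertical axis, its own linear scale from near 0 in each panel) in the 3 control and 3 TGF-β1 libraries (dots). The bar beside a group is the mean ± SD, n = 3, and is drawn only for the 7 members that passed the count filter. For *CDH2* and *CDH6* every TGF-β1 library lies above every control library, and every TGF-β1 library is at 0 for *CDH5*.

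Among type I cadherins, *CDH2* carried the rise. *CDH2* had 302.5, 300.4 and 308.0 CPM in control and 606.5, 637.4 and 642.8 CPM after TGF-β1. Every TGF-β1 library lay far above every control library. The mean went from 304 ± 3.94 to 629 ± 19.6 CPM (SD, n = 3), a log2 fold change of 1.05 ± 0.05 (SE) with a 95% interval of 0.94 to 1.164, or 2.07-fold (edgeR, adjusted p = 5.1e-08). By size of rise *CDH2* ranked 599 among the tested genes, and 4.02% of them rose more. Over all tested genes, 3.68% were called at least 2-fold higher. The rise was 0.94 on the log2 scale, just under 2-fold, when libraries were scaled by total counts only, a scaling that moved the median of all genes to -0.10 from 0.01.

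*CDH1*, the epithelial side of the switch, gave almost no reads. Control libraries had 1, 2 and 3 reads of *CDH1*, and TGF-β1 libraries had 2, 1 and 0. The groups overlapped. These 6 control reads and 3 TGF-β1 reads, of 67.9 and 73.8 M, gave a ratio of 0.495 relative to depth with an exact binomial 95% interval of 0.0802 to 2.32, which covers counting error only. The exact two-sided permutation test of CPM gave p = 0.2, and 0.1 is the smallest p that 3 libraries against 3 allow. No change of *CDH1* was detected with so few reads, and the interval allows a fall to 0.0802 or a rise to 2.32 times the control level. These libraries thus held a gain of *CDH2* without a measurable loss of *CDH1*. *CDH1* lies on chromosome 16, positions 68737292 to 68835537 of hg38, plus strand.

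*CDH3*, which ends 9718 bases upstream of *CDH1* on the same strand, had 0 reads in each control library and 0, 1 and 0 after TGF-β1. A count of 0 reads in a group allows up to 0.0426 CPM in control, by the limit of 3 reads. *CDH4*, on chromosome 20, had 11, 12 and 14 reads in control and 20, 15 and 10 after TGF-β1, or 0.525 ± 0.062 and 0.622 ± 0.145 CPM (SD, n = 3). The *CDH4* groups overlapped, and the log2 fold change of 0.26 ± 0.30 (SE) had a 95% interval of -0.40 to 0.92 (edgeR, adjusted p = 0.517), which still allows a rise of close to 2-fold. A second *CDH4* entry on an alternate contig held 15 reads in control and 26 after TGF-β1, and reads shared between such copies make the level uncertain.

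Among type II cadherins, *CDH6* rose most. This K-cadherin is expressed in the developing and adult proximal tubule, and its gene lies on chromosome 5, positions 31193686 to 31329146, plus strand. *CDH6* had 192, 185 and 218 CPM in control and 561, 556 and 563 CPM after TGF-β1. Control libraries spread by 17.5 CPM (SD) and TGF-β1 libraries by 3.64 CPM (SD), with no overlap. The mean went from 199 to 560.1 CPM (n = 3 each), a log2 fold change of 1.495 ± 0.07 (SE) with a 95% interval of 1.35 to 1.64, or 2.82-fold (edgeR, adjusted p = 2.4e-08). *CDH6* ranked 345 by size of rise, with 2.31% of tested genes above it.

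*CDH24*, a type II cadherin that binds the same catenins, lies on chromosome 14, positions 23047067 to 23057619, minus strand. It had 44.8, 43.5 and 45.2 CPM in control and 53.7, 49.5 and 53.6 CPM after TGF-β1. The groups did not overlap, but the difference was small. The log2 fold change was 0.23 ± 0.06 (SE) with a 95% interval of 0.10 to 0.36, or 1.17-fold (edgeR, adjusted p = 0.00808). With libraries scaled by total counts only it was 0.12 with an edgeR adjusted p of 0.117, and the call was lost.

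*CDH5*, the cadherin of endothelial junctions, was at the floor after TGF-β1. Its control libraries held 29, 16 and 17 reads, or 0.888 ± 0.346 CPM (SD, n = 3), and its TGF-β1 libraries held 0, 0 and 0. Control replicate 1 was the highest of the controls. Against the limit of 3 reads over the group, and with the control level taken as measured, *CDH5* was at least 20.9-fold lower after TGF-β1. Since its control libraries alone brought it into the test, no p-value is given for it. Of 9 endothelial markers 2 passed the filter and both rose, *ESAM* by 1.68 ± 0.21 and *ROBO4* by 1.38 ± 0.20 on the log2 scale (SE; adjusted p = 7.3e-05 and 2e-04 by edgeR). The list summed to 2.72 to 3.74 TPM in control and 7.63 to 8.39 TPM after TGF-β1. *PECAM1*, an endothelial marker named here after its values were seen, had 5, 4 and 5 reads in control and 0 in each TGF-β1 library. Whether cells of another type played a part in the *CDH5* result was not tested.

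*CDH11*, a mesenchymal cadherin typical of fibroblasts and osteoblasts, had 0 reads in all 6 libraries. With 3 reads as the limit, its level could be up to 0.0426 CPM in control and 0.0422 CPM after TGF-β1. Of 8 fibroblast and pericyte markers, 5 passed the filter, 1 rose and 3 fell. All 8 summed to 88.7 to 104 TPM in control and 73.5 to 77.1 TPM after TGF-β1. *PDGFRB*, a growth factor receptor of mesenchymal cells, was the gene that rose, by 3.38 ± 0.18 on the log2 scale (SE; adjusted p = 1.1e-07 by edgeR). The genes that fell were *THY1* (-1.72), *RGS5* (-0.35) and *LUM* (-0.28). *THY1* passed the filter through its control libraries alone, so its fall adds nothing. The *RGS5* call was lost in 8 alternative fits.

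Both cadherins without a classical tail fell. *CDH16*, whose protein is restricted to kidney tubules and thyroid, lies on chromosome 16, positions 66908122 to 66918885, minus strand. It had 1.86, 2.04 and 2.09 CPM in control and 0.960, 0.827 and 0.668 CPM after TGF-β1. No TGF-β1 library reached a control library, and the log2 fold change was -1.27 ± 0.21 (SE) with a 95% interval of -1.73 to -0.82 (edgeR, adjusted p = 5.3e-04). These values rested on 42 to 50 reads per control library and 14 to 25 per TGF-β1 library. Over all tested genes, 5.38% were called at least 2-fold lower.

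*CDH13*, on chromosome 16 at positions 82626823 to 83800640, plus strand, had 2.53, 2.41 and 3.11 CPM in control. After TGF-β1 it had 1.34, 1.36 and 1.58 CPM. The groups did not overlap, and the log2 fold change was -0.91 ± 0.18 (SE) with a 95% interval of -1.31 to -0.51 (edgeR, adjusted p = 0.00214). An entry on the opposite strand that overlaps exons of *CDH13* had at most 1 read in a library.

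Per gene length, the pool of the 10 cadherins summed to 310, 310 and 335 TPM in control and 589, 638 and 639 TPM after TGF-β1, with no overlap. The means were 318 ± 14.3 and 622 ± 28.7 TPM (SD, n = 3), a ratio of 1.95 (exact permutation p = 0.1, the smallest possible). The pool grew while its leading gene kept most of it. *CDH2* held 69.3 ± 1.09% in control and 67.7 ± 0.821% after TGF-β1 (SD, n = 3), and these shares overlapped (exact permutation p = 0.2). *CDH6* went from 20.3 ± 1.19% to 27.0 ± 0.558% (SD, n = 3), a gain of 6.74 percentage points without overlap (exact permutation p = 0.1). *CDH24* fell from 9.08 ± 0.150% to 5.03 ± 0.270% of the pool (SD, n = 3; exact permutation p = 0.1), although its own level was slightly higher. Shares of 1 pool sum to a fixed total, so they do not move independently.

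The ratio of *CDH2* to *CDH6* TPM was 3.51, 3.61 and 3.15 in the control libraries, against 2.41, 2.56 and 2.55 with TGF-β1. It was lower in every TGF-β1 library than in every control library (exact permutation p = 0.1). By class, type I cadherins held 69.4 ± 1.08% in control and 67.7 ± 0.811% after TGF-β1 (SD, n = 3) and overlapped. Type II cadherins held 29.6 ± 1.05% and 32.1 ± 0.792% (SD, n = 3) and did not overlap. *CDH13* and *CDH16* together went from 1.04 ± 0.0548% to 0.220 ± 0.0232% (SD, n = 3). *CDH2*, *CDH6* and *CDH24* held 98.6% of the pool in control and 99.7% after TGF-β1.

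**Figure D2:**
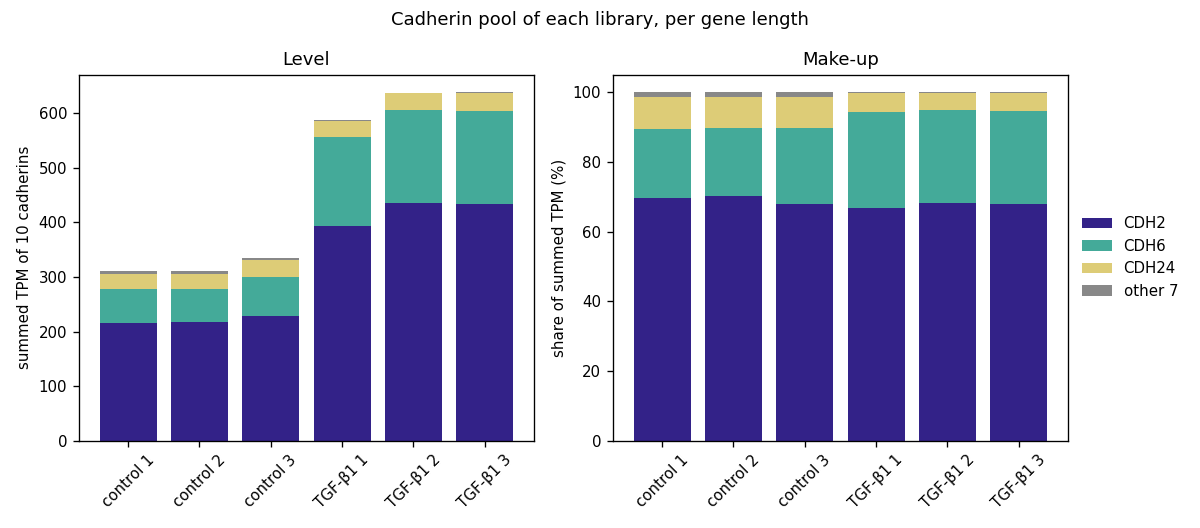
Summed TPM of the 10 cadherins in each of the 6 libraries (left, bars stacked by gene, from 0) and the share of each gene in that sum in percent (right), with no error bars since each bar is 1 library. The sum is 310 to 335 TPM in control and 589 to 639 TPM after TGF-β1, and the *CDH6* band widens from 20.3% to 27.0% on average.

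Genes of the proteins that tie cadherins to the cell moved in both directions. Of 20 catenins and junction partners 17 passed the count filter, of which 3 rose, 7 fell and 7 were not called, where 22.2% of all tested genes were called higher and 22.1% lower. These shares are also the background for the lists that follow. The partners had a median log2 fold change of -0.05 against 0.01 over all tested genes. Their summed level was 1721 to 1768 TPM in control and 1297 to 1409 TPM after TGF-β1. *CTNNB1* (β-catenin) rose from 262 ± 7.59 to 344 ± 25.3 CPM (SD, n = 3), by 0.39 ± 0.06 on the log2 scale (SE; adjusted p = 4.7e-04 by edgeR). *CTNNBIP1*, which encodes an inhibitor of β-catenin's binding to TCF factors, rose by 0.83 ± 0.14 (SE; adjusted p = 8.6e-04 by edgeR) and *NECTIN1*, a nectin adhesion receptor, by 0.35 ± 0.11 (SE; adjusted p = 0.0217 by edgeR). The *NECTIN1* call was lost in 5 of the alternative fits.

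*CTNNA1*, the epithelial α-catenin, had 444 ± 13.3 CPM in control and 468 ± 10.6 CPM after TGF-β1 (SD, n = 3), a log2 difference of 0.08 ± 0.05 (SE) with a 95% interval of -0.04 to 0.19 (edgeR, adjusted p = 0.259). *JUP* (plakoglobin) stood at -0.04 ± 0.08 on the log2 scale (SE; adjusted p = 0.742 by edgeR). *CTNND1* (p120-catenin) was listed at only 1.92 TPM in control, with 87, 88 and 96 reads in control and 60, 147 and 80 after TGF-β1. Its exons are shared with the readthrough entry *TMX2-CTNND1*, so its level is uncertain. *AFDN* (afadin), *PKP4*, *MAGI1* and *NECTIN2* were not called either, with log2 fold changes of 0.04, -0.03, -0.05 and -0.17.

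*CTNNA3*, the α-catenin of heart and testis, summed to 42 reads over the control libraries and 12 over the TGF-β1 libraries. It passed the filter through its control libraries alone, so it had to differ and its place among the 7 falls is no support. *CTNNAL1*, an α-catenin relative, fell from 280 ± 6.75 to 138 ± 3.47 CPM (SD, n = 3), by 1.02 on the log2 scale (edgeR, adjusted p = 5.4e-08). *ARVCF*, a p120 relative, changed by -1.12 ± 0.18, and the actin-binding partner *LIMA1* by -0.91 ± 0.07 (SE; adjusted p = 4.4e-04 and 1.2e-06 by edgeR). *AJUBA*, *NECTIN3* and *VCL* (vinculin) also fell, at -0.71, -0.48 and -0.20. Exons of *ARVCF*, *VCL*, *DSP*, *ESRP2*, *CLSTN1*, *PAX8*, *KRT8* and *KRT18*, among others, overlap those of entries on the other strand. Whether counting used strand was not stated, so reads of such pairs cannot be told apart.

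**Figure D3:**
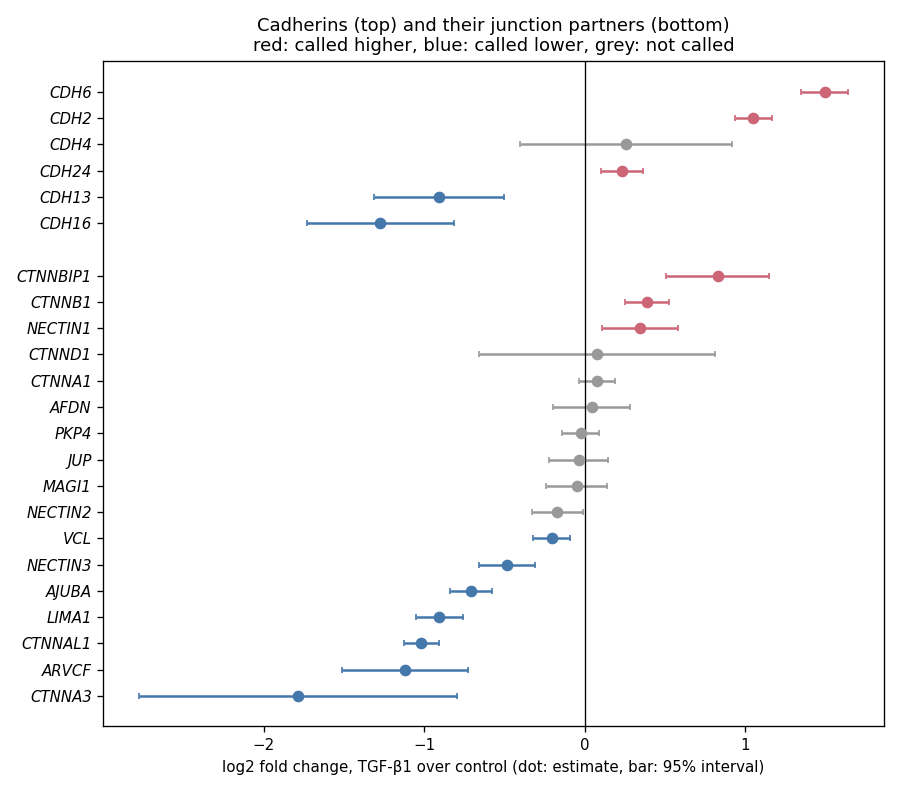
Log2 fold change, TGF-β1 over control (horizontal axis), of the 6 cadherins with reads in both groups that passed the count filter (top) and of the 17 tested junction partners (bottom). Dots are edgeR estimates, bars their 95% intervals, and colours show calls at an adjusted p under 0.05. *CDH6* and *CDH2* lie above every partner, the highest of which is *CTNNBIP1* at 0.83.

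Desmosomes, the other cadherin-based junctions, changed unevenly. Of 12 desmosomal genes 7 were tested, 1 rose and 4 fell, with a median log2 fold change of -0.37. *DSP* (desmoplakin), which links desmosomes to keratin filaments, rose from 175 ± 3.62 to 534 ± 87.6 CPM (SD, n = 3), a log2 fold change of 1.61 ± 0.11 (SE; adjusted p = 9.1e-06 by edgeR). The plaque genes *PKP3* and *PKP2* had log2 fold changes of -0.86 each, the desmosomal cadherin *DSC3* of -0.56 and the membrane protein *PERP* of -0.37. The desmosomal cadherins *DSG1* and *DSG4* had 0 reads.

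Among 15 genes of cadherin processing and turnover, 13 were tested, 3 rose and 4 fell, with a median log2 fold change of -0.03. *FURIN*, a proprotein convertase that cleaves the cadherin precursor, rose from 45.2 ± 1.32 to 134 ± 8.59 CPM (SD, n = 3), by 1.57 ± 0.06 on the log2 scale (SE; adjusted p = 1.1e-08 by edgeR). *CBLL1*, the ubiquitin ligase Hakai that acts on E-cadherin, rose by 0.27, and the endocytic adaptor *NUMB* by 0.22, a call lost with total counts only (0.11). The sheddases *ADAM10* and *ADAM15* were at -0.37 and -0.27. The γ-secretase gene *PSEN2*, whose complex cuts the remaining stub, was at -0.69, and these genes were called lower.

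Of 41 other genes of the cadherin superfamily 18 were tested, 6 rose and 7 fell, with a median log2 fold change of -0.04. The largest falls were those of *PCDH20* (-2.38), *FAT4* (-1.28), *FAT1* (-1.04) and *CDHR3* (-0.93), the last of which passed the filter through its control libraries alone and lost its call in 8 alternative fits. *FAT1*, a giant cadherin of planar polarity, had 774 ± 12.8 CPM in control and 377 ± 95.9 CPM after TGF-β1 (SD, n = 3). The largest rises were those of *CLSTN3* (2.63), *PCDH9* (1.28), *PCDH10* (0.81) and *CLSTN1* (0.44), which are calsyntenins and protocadherins. The *PCDH10* call was lost without TGF-β1 replicate 2 (0.62). *CDH7*, *CDH9*, *CDH10*, *CDH12*, *CDH18* and *CDH19*, type II cadherins that are largely neural and were named after their values were seen, had 0 reads in all libraries.

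Genes listed as regulators of *CDH1* moved in both directions although *CDH1* itself could not be followed. The list is not limited to transcription, since it also holds the splicing regulator *ESRP2*. Of its 20 genes 12 were tested, 5 rose and 6 fell, with a median log2 fold change of -0.05. *SNAI1*, a repressor that binds E-boxes, rose by 2.23 ± 0.10 on the log2 scale (SE; adjusted p = 5.2e-08 by edgeR), *TCF4* by 1.40, *KLF4* by 0.64 and *TCF3* by 0.39. *SNAI2*, *TWIST1*, *ZEB2* and *ZEB1*, repressors of *CDH1* named after their values were seen, went both ways. *SNAI2* was called higher (0.36), *TWIST1* (-0.31) and *ZEB2* (-0.24) were called lower, and *ZEB1* (0.15) was not called. The calls of *SNAI2*, *TWIST1* and *ZEB2* were lost in 3, 7 and 2 alternative fits. *ELF3*, an epithelial ETS factor, fell from 210.3 ± 7.995 to 71.9 ± 3.16 CPM (SD, n = 3), with a log2 fold change of -1.55 ± 0.06 (SE; adjusted p = 7e-09 by edgeR). The splicing regulator *ESRP2* was at -0.90 and *GRHL1* at -0.78, and both were called lower. *GRHL2*, *OVOL1* and *TWIST2*, also of this list, had 0 reads in all 6 libraries.

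Leaving out each library in turn, and each other setting of the test, kept every call and direction among the members with a fold change, except that of *CDH24* under total counts and that the stricter count filter removed *CDH4*, *CDH5*, *CDH13* and *CDH16* from the test. *CDH4* was also not tested where only names with 1 entry were kept. *CDH5*, with 0 reads in every TGF-β1 library, had to keep its direction. The log2 fold change was 1.03 to 1.06 for *CDH2* and 1.45 to 1.57 for *CDH6* over the 6 fits without 1 library. It was 0.20 to 0.27 for *CDH24*, -0.99 to -0.79 for *CDH13* and -1.42 to -1.16 for *CDH16*. *CDH4*, not called in any fit, ranged from 0.06 to 0.40.

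**Figure D4:**
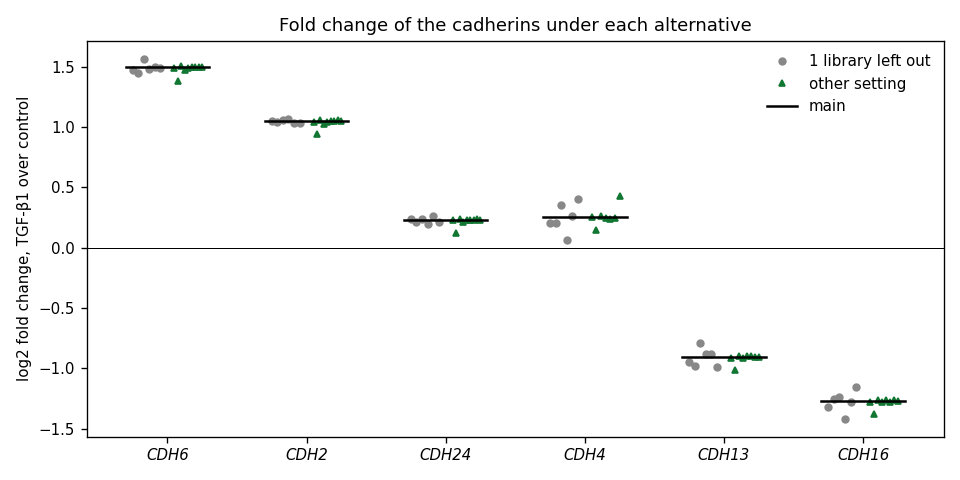
Log2 fold change, TGF-β1 over control (vertical axis), of each cadherin with reads in both groups that passed the count filter, in the fit reported (line), in 6 fits without 1 library (circles) and under the other settings (triangles). *CDH2* stays between 0.94 and 1.06 and *CDH6* between 1.39 and 1.57.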

How the data were processed

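RNA-seq tables of 6 HK-2 libraries (3 control, 3 TGF-β1) were analysed. Per the file headers, each deposited table holds raw counts per gene, and TPM and FPKM that the authors computed from the counts and gene length. FPKM were not used. The submitters' processing notes name CASAVA, featureCounts 2.0.1, DESeq2 1.16.1 and hg38. The aligner is not given in the sources used here. Broken records (7 per table) were rejoined, and 598 entries without a name (0.396% to 0.464% of counts) were left out.

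Genes passed filterByExpr of edgeR 4.0.16 (minimum count 10), counts were TMM-scaled, and groups were compared with edgeR's quasi-likelihood test (two-sided, robust). P values were adjusted by Benjamini-Hochberg over 14860 genes, with calls under 0.05. Single values used an exact two-sided permutation test. Intervals and floors (3 reads) cover counting error only. Alternatives ran in limma 3.58.1 and DESeq2 1.42.0 under R 4.3.3, and the remaining steps in Python 3.11.15 with scipy 1.17.1 and pandas 2.3.3.

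The members and the lists (catenin partners, desmosomes, processing and turnover, other cadherin superfamily, *CDH1* regulators, and markers of tubule, endothelium, fibroblast and distal nephron) were chosen with earlier results of these data known. Named were all 10 members, every tested partner, and the 4 largest rises and falls among called genes of each other list. Some genes of the lists are not reported here. Alternatives were other scalings, filters and tools, summed entries, fits that omit 1 library, and a replicate block. No clear pairing of the libraries by replicate number was seen.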

Additional observations from a re-analysis of the deposited data

How the results depend on the processing

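Of 100 values of the members' log2 fold changes under the alternatives, 99 had the same sign and the same call at 0.05, and *CDH24* with total counts only (0.12) had the same sign but no call. Of the 99, 14 were of *CDH5*, which had 0 reads in every TGF-β1 library, so they add no support. *CDH5* is also among the members called lower in the fits without 1 library. Over the fits without 1 library, 3 to 3 members were called higher and 3 to 3 lower, with 9 to 10 partners, 5 to 6 desmosomal genes, 7 to 8 processing genes, 9 to 13 other superfamily genes and 7 to 11 *CDH1* regulators called in either direction, and the 7 regulators were those without control replicate 3, against 11 with all libraries. With a mean of at least 50 counts, 0 members were called lower, since those 3 were not tested. Shares of the pool changed by -4.41 points for *CDH2* and 9.15 for *CDH6* when counts were not divided by length, against -1.60 and 6.74. Without *CDH2* in the pool, *CDH6* gained 17.6 points and *CDH24* changed by -14.0, since the pool is then smaller. Without 1 library the shares changed by -2.21 to -1.13 for *CDH2*, 6.31 to 7.42 for *CDH6* and -4.17 to -3.91 for *CDH24*.

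Uncalled partners near 0 changed sign, without a call, under some settings, and the cause was not tested. With total counts only, *CTNNA1* was at -0.032, *CTNND1* at -0.031 and *AFDN* at -0.065. *CTNND1* was at -0.043 with limma-voom and -0.0063 with the replicate block. Without 1 library, *CTNND1* ranged from -0.34 to 0.36, *AFDN* from -0.025 to 0.15, *JUP* from -0.14 to 0.032 and *MAGI1* from -0.11 to 0.024. *NECTIN2* was called lower in 4 settings.

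With the replicate number as a block, 3 members were called higher and 3 lower, with *CDH2* at 1.05 and *CDH6* at 1.499, and 3396 genes were called higher and 3394 lower over all genes against 3294 and 3288. The block moved no count by over 1.5 times, but it added a call for *NECTIN2* (-0.17) and removed that for *CDHR3* (-0.93). Deviations of same-numbered libraries from their group means correlated at 0.11, -0.01 and 0.08 across genes. Control replicate 2 correlated best with TGF-β1 replicate 1. No clear pairing by number was seen, although so few libraries cannot exclude one. DESeq2 called 2917 genes higher and 2867 lower, and total counts only 2134 and 4590. *CDH1*, *CDH3* and *CDH11* had too few reads for the test, so no fold change was fitted for them.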
